A study of Mus musculus with 12 samples.

Results

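The cytosolic ribosomal protein genes were taken by name: every gene whose symbol starts with Rpl or Rps followed by a digit, without the pseudogenes named with -ps and without the Rps6k kinases. The rule found 89 of the 54532 genes in the tables. They were 43 proteins of the large subunit, 30 of the small subunit, 8 paralogs that resemble one of these, 6 further copies, and Rps19bp1 and Rpl7l1, which carry the name but are not ribosomal subunits. The annotation types 82 of them as protein coding and 7 as pseudogenes, and they lie on 19 chromosomes, with 14 on chromosome 7 and 4 on X. The 12 libraries hold hippocampal total RNA from mice aged 3 months, with 3 libraries each from Atrx conditional knockout (cKO) males, control males, cKO females and control females. By its title, the study deleted Atrx in neurons. The sources used here do not give the driver of the deletion, the deleted exons, the strain or the alleles that the controls carry. The RNA is that of all hippocampal cells, so fewer cells of a type and less RNA per cell cannot be told apart. The sources do not tie each library to 1 mouse, so p-values measure the spread between libraries.

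Ribosomal proteins are the protein part of the cytosolic ribosome: those of the small subunit help to select the start codon and decode the messenger RNA, and those of the large subunit support peptide bond formation. They are made in nearly equal amounts per ribosome, and their messenger RNAs are short and abundant in every cell. Many of these messenger RNAs begin with a cytosine followed by a run of pyrimidines, the terminal oligopyrimidine element, through which the mTOR kinase and the RNA-binding protein LARP1 adjust their translation. In neurons such messenger RNAs are also found in dendrites and axons. ATRX, the protein whose gene was deleted here, is a chromatin remodeller of the nucleus and is not a ribosome component.

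The starts of 6 genes, 5 of high level and Rps18 of lower level with a long run, are shown because many messenger RNAs of the family carry this element. They were chosen after their values were seen. Each line gives 10 bases before and 20 bases from the annotated start (RefSeq, GRCm38.p6), on the strand of the gene, with the unbroken run of C and T over the start in capitals.
Rps21, chr2:180257369-180257398, plus strand: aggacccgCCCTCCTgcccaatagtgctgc
Rps24, chr14:24490668-24490697, plus strand: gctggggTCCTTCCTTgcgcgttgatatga
Rpl38, chr11:114668570-114668599, plus strand: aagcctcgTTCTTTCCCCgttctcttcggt
Rps18, chr17:33955646-33955675, minus strand: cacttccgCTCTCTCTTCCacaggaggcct
Rpl4, chr9:64173377-64173406, plus strand: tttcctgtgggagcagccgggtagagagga
Rpl26, chr11:68901556-68901585, plus strand: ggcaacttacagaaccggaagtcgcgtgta
The run was 7 bases in Rps21, 9 in Rps24, 10 in Rpl38 and 11 in Rps18, while Rpl4 and Rpl26 had none at the start RefSeq gives. RefSeq lists 2 starts each for Rps21 and Rps24, of which the one with the longer run is shown. The run at the other start was 1 base in Rps21 and 0 in Rps24. Of the 65 genes of the family in the RefSeq promoter table, 14 (21.5%) had a start of C followed by 4 bases that were each C or T, against 3.01% of the 27025 genes in that table. A run of at least 8 C or T bases over the start, which can include that start, was found in 17 (26.2%), against 4.59% of all genes. Both motifs were read on the strand of the gene at every listed start. A match is a description of these letters, and a gene without one may be used from another start.

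Levels are given as scaled FPKM: the FPKM of a gene summed over its transcripts, less the background of the library, on a scale common to the libraries. FPKM is per length, which allows only a rough comparison of genes, since near-identical copies, described below, can share reads. The 73 subunit genes spanned a wide range within each group, from 13.6 to 1159.6 scaled FPKM in cKO males, 11.4 to 1158 in control males, 11.3 to 555 in cKO females and 9.08 to 500.2 in control females (means of 3 libraries). The medians over these genes were 130.4 in cKO males, 129 in control males, 74.4 in cKO females and 71.3 in control females. A level of 20 scaled FPKM was reached by 70 of the 73 in each male group, 68 in cKO females and 66 in control females.

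Rps21, a small-subunit protein that in yeast takes part in late processing of the small ribosomal RNA, had the highest level (ENSMUSG00000039001, chromosome 2, 180257377 to 180258445, plus strand). It had 1194, 1052 and 1233 scaled FPKM in cKO males, 1045, 1044 and 1384 in control males, 553, 487 and 625 in cKO females, and 523, 494 and 484 in control females. All 6 male values lay above all 6 female values, and the genotypes overlapped within each sex. Rps24, a small-subunit protein mutated in some human Diamond-Blackfan anaemia (chromosome 14, 24487125 to 24496959, plus strand), came next with 619.7, 463 and 876 in cKO males, 565, 812 and 693 in control males, 332, 219 and 190.3 in cKO females, and 249.6, 296 and 245 in control females. By the mean over all 12 libraries, Rps29, Rpl4 and Rpl32 followed. The order below Rps24 differed between the groups: next came Rpl32 in cKO males at 450.4, Rps29 in control males at 489.9, Rpl4 in cKO females at 233 and Rps29 in control females at 261. The lowest of the genes tested were Rpl18, Rps27l, Rps19bp1, Rps4l and Rpl32l. Rpl18 is a large-subunit protein and had 13.6 ± 3.69 scaled FPKM in cKO males, 11.4 ± 2.90 in control males, 11.3 ± 1.91 in cKO females and 9.08 ± 3.54 in control females (SD, n = 3 each).

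The filter on low values was passed by 85 of the 89 genes. The other 4 were Rpl3l, Rpl10l, Rpl39l and Rps12l1. In the mouse, Rpl3l is known from heart and skeletal muscle, and Rpl10l and Rpl39l from the testis. The highest value of any library was 0.22 scaled FPKM for Rpl3l, 0.121 for Rpl39l and 0.0109 for Rpl10l. Rps12l1 was listed at 0 after background subtraction in all 12.

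Libraries differed in depth and in background, the median FPKM of 1979 olfactory and vomeronasal receptor genes, which hippocampal cells do not use. Mapped sequence ran from 3.66 to 8.64 Gb in cKO males, 7.12 to 8.19 in control males, 1.16 to 4.26 in cKO females and 3.602 to 7.90 in control females. Background was 0.0296 to 0.422 FPKM in cKO males, 0.00759 to 0.0451 in control males, 0.464 to 2.91 in cKO females and 0.135 to 0.831 in control females, with cKO females 2 and 3 the highest. Xist and Ddx3y matched the labelled sex in all 12 libraries. Atrx had 34.3 ± 2.09 FPKM in cKO males and 43.0 ± 3.44 in control males, and 35.1 ± 3.71 in cKO females and 59.3 ± 4.03 in control females (SD, n = 3 each). The exact two-sided permutation p for Atrx was 0.1 within each sex and 0.005 with labels permuted within both, the smallest values possible. By the limma test used for the ribosomal protein genes, Atrx did not pass an adjusted p of 0.05 in either sex. Its log2 change was −0.33 ± 0.16 in males and −0.52 ± 0.16 in females (SE), with an adjusted p of 0.0977 in females by limma. The mean of both effects was −0.42 ± 0.11 (SE, adjusted p = 0.202 by limma). All 10 neuron markers, all 8 astrocyte markers and all 8 oligodendrocyte markers were detected in every library. The choroid plexus markers summed to 1303 to 5244 scaled FPKM in cKO male 1, all 3 control males and control female 2, and to 14.7 to 48.3 in the other 7 libraries.

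**Figure D1:**
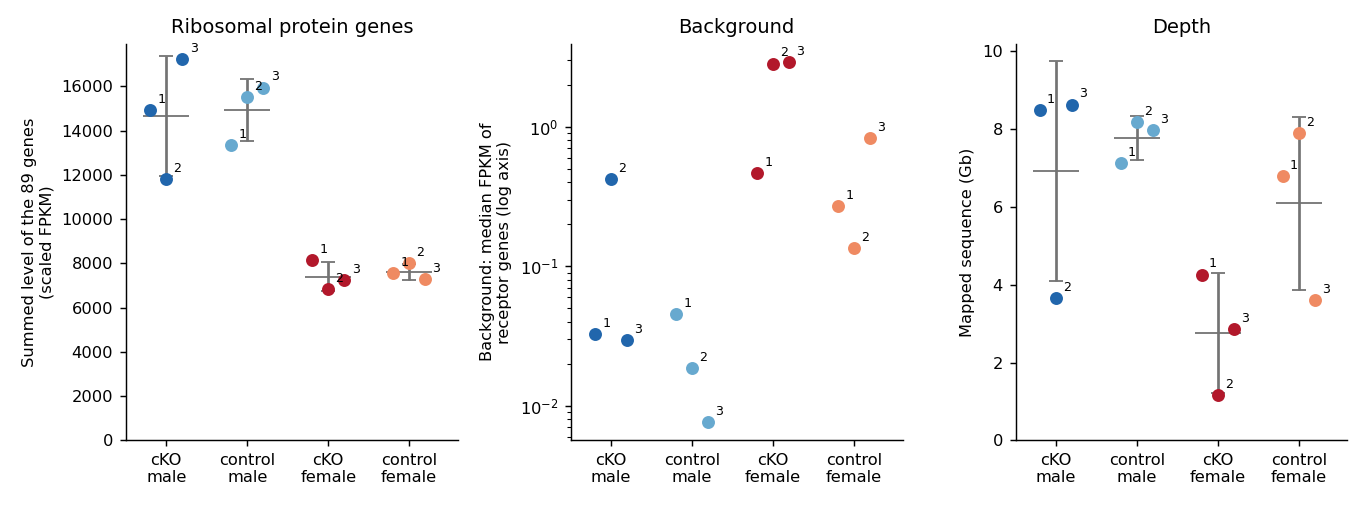
Summed level of the 89 ribosomal protein genes (scaled FPKM, left), background of receptor genes (FPKM, log axis, middle) and mapped sequence (Gb, right) in each library, numbered by replicate; grey bars are the group mean and SD (n = 3). The male sums lie between 11822 and 17243 and the female sums between 6831 and 8128, and the background of all males but cKO male 2 lies below that of all females.

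The comparison of cKO with control mice asked whether deletion of Atrx changed these genes. No ribosomal protein gene passed the threshold in either sex, and neither did Atrx itself. The summed level was 14911, 11822 and 17243 scaled FPKM in cKO males and 13353, 15496 and 15944 in control males, a ratio of means of 0.982. It was 8128, 6831 and 7241 in cKO females and 7551, 8016 and 7278 in control females, a ratio of 0.972. Without subtraction and scaling, the ratio of the summed deposited FPKM was 0.986 in males and 0.816 in females, and the female family median was −0.35 without scaling factors and −0.99 on the deposited FPKM scaled over all genes. As a share of all deposited FPKM, the ratio was 0.960 in males and 0.798 in females. As a share of the scaled level of all coding genes, it was 0.987 in males and 0.729 in females. The gene Gm10800 alone held 18.3% and 20.7% of all deposited FPKM in cKO females 2 and 3. On the summed scaled level cKO and control overlapped in both sexes, and cKO male 2 and cKO female 2 were the lowest of their sex.

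In males, 0 of 85 genes passed an adjusted p of 0.05 by limma, as did 0 of all 16124 genes tested (0%). At an unadjusted p under 0.05 the family had 1 gene, against 2.1% of all genes tested. The median log2 change of the family was −0.022, against 0.023 over all genes. It was positive in 34 genes and negative in 51, against 55.2% and 44.8% of all genes. The gene of smallest p was Rpl31, a large-subunit protein near the exit of the peptide tunnel. Rpl31 had 231, 179 and 246 scaled FPKM in cKO males and 238, 263 and 308 in control males. These groups overlapped, with a log2 change of −0.31 ± 0.13 (SE, adjusted p = 1 by limma). The next by p were Rpl24 (log2 −0.41), Rps16 (0.24), Rps13 (−0.27), Rps25 (−0.38), Rps3a1 (0.26), Rps2 (−0.16) and Rpl23a (−0.20), and none passed. The count of positive genes turned on single libraries: it was 67 without cKO male 2, 15 without cKO male 3 and 15 without control male 1. No gene of the family had all 3 cKO males on one side of all 3 control males, against 6.49% of all genes above and 5.22% below.

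In females, 0 of 85 genes passed, as did 0 of all 16124 (0%). At an unadjusted p under 0.05 the family had 11 genes (12.9%), against 33.6% of all genes tested. The median log2 change was −0.038, against −0.0039 over all genes. It was positive in 37 genes and negative in 48, against 49.6% and 50.4% of all genes. The count of positive genes depended on the scaling: it was 19 without background subtraction and 10 without scaling factors, with all genes shifted by 0.43 and −0.30, 47 after quantile normalization, and 2 of 87 on the deposited FPKM scaled over all genes. Without cKO female 1, 16 genes of the family passed, 5 higher and 11 lower, when 4201 of all genes passed as higher and 3747 as lower. Without cKO females 2 and 3, the libraries of highest background, 58 were positive and the median log2 change was 0.065, from a single cKO female library.

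The female values of smallest p came from both ends of the level range. Rpl32l, an annotated pseudogene copy of Rpl32, had 1.49, 0 and 0 scaled FPKM in cKO females and 1.705, 1.54 and 2.88 in control females. The zeros stand where 2.83 and 2.91 FPKM of background had been subtracted. Its log2 change was −1.65 ± 0.46 (SE, adjusted p = 0.0977 by limma), and 0.037 without the subtraction. Rps4l, a paralog of the X-linked Rps4x, had 2.48, 1.87 and 1.35 in cKO females and 3.02, 4.47 and 4.004 in control females, a log2 change of −0.87 ± 0.25 (adjusted p = 0.0977 by limma). Both genes lay lower in all 3 cKO than in all 3 control females, at levels within reach of the background of cKO females 2 and 3.

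Rps29, a small zinc-binding protein of the small subunit, had 240.7, 133.2 and 156 scaled FPKM in cKO females and 268, 290.4 and 226 in control females. Rpl38, a small large-subunit protein linked in mice to the translation of Hox messenger RNAs, had 216, 102 and 141.5 in cKO females and 236, 258 and 216 in control females. In both genes cKO female 1 lay within or at the edge of the controls, and cKO females 2 and 3 lay below. The log2 changes were −0.60 ± 0.21 and −0.69 ± 0.24 (SE), each with an adjusted p of 0.101 by limma. In the other direction, Rps15a, a small-subunit protein, had 13.2, 20.9 and 18.5 scaled FPKM in cKO females and 12.0, 12.0 and 12.4 in control females. Rpl35, a large-subunit protein, had 101, 126 and 117 in cKO females and 94.4, 90.8 and 89.6 in control females. In both genes all 3 cKO females lay above all 3 controls. Their log2 changes were 0.49 ± 0.16 and 0.31 ± 0.11 (SE, adjusted p = 0.0978 and 0.103 by limma). Both were negative on the deposited FPKM scaled over all genes, and Rps15a was negative when a single transcript stood for the gene. Rps3a2 (log2 0.26) and Rpl22l1 (−0.48) followed by p and did not pass. Of the 85 genes, 8 lay higher and 4 lower in all 3 cKO than in all 3 control females, against 10.4% and 8.32% of all genes.

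**Figure D2:**
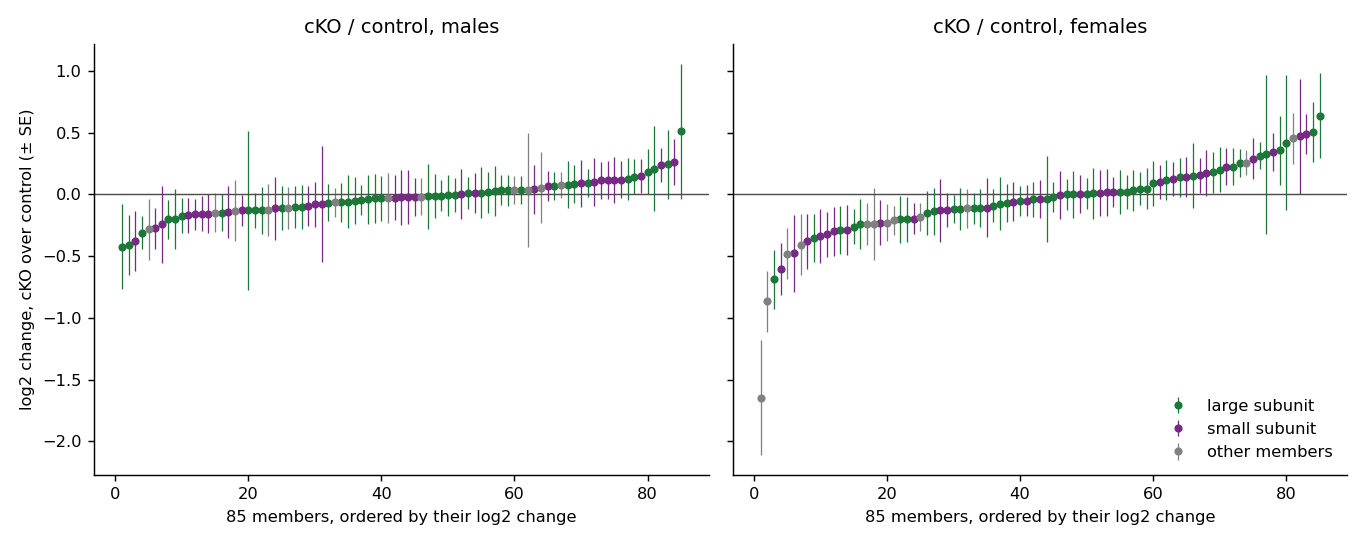
log2 change of cKO over control (points, ± SE) for the 85 ribosomal protein genes tested, in males (left) and females (right), each ordered by its own change and coloured by subunit. In males 34 and in females 37 points lie above 0, none passed an adjusted p of 0.05, and the lowest female point, at −1.65, is Rpl32l.

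Large and small subunit genes had medians close to each other. The median log2 change was −0.015 for the 43 large-subunit genes and −0.021 for the 30 small-subunit genes in males, and −0.00047 and −0.023 in females. The ratio of the summed large to the summed small subunit was 1.30 in cKO males and 1.32 in control males, and 1.42 in cKO females and 1.40 in control females. The test of the difference between the male and the female effect called 0 of 85 genes, and 0 of all genes (0%). At an unadjusted p under 0.05 it held 4 genes of the family, against 7.35% of all genes. These were Rpl24 (male minus female log2 −0.92), Rps15a (−0.58), Rpl32l (1.68) and Rps13 (−0.56), each with an adjusted p of 0.53 by limma. The difference was positive in 52 genes and negative in 33, against 50.6% and 49.4% of all genes. The mean of both effects called 0 of the 85 and 1 of all genes (0.0062%), with 6 genes of the family at an unadjusted p under 0.05, against 22.5% of all. It was positive in 38 and negative in 47, against 50.4% and 49.6% of all genes. Among the genes of smallest p there were Rps4l, Rpl38, Rps29, Rpl32l, Rps3a2, Rpl35 and Rpl22l1, with adjusted p from 0.202 to 0.24 by limma.

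Other genes of translation were not called by genotype either. Of 34 translation factors, 27 were negative in females (median log2 −0.12) and 15 in males (median 0.0043), and of 36 ribosome biogenesis genes 25 were positive in each sex (median 0.16 in females and 0.071 in males). The cell markers had no call. All 8 oligodendrocyte markers were negative in females (median −0.33), with sums of 500 to 769 scaled FPKM in cKO females and 622 to 866 in control females, while 5 of 8 were positive in males (median 0.097). Of 10 neuron markers 8 were negative in each sex (median −0.18 in males and −0.22 in females), and of 8 microglia markers 7 were negative in each sex (−0.15 in males and −0.43 in females). Of 8 astrocyte markers 7 were negative in females (median −0.099) and all in males (median −0.21), with male sums of 827 to 976 in cKO males and 970 to 1113 in control males. Their part in the values of the ribosomal protein genes was not tested.

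The sex difference without Atrx deletion was taken between the control groups. Every one of the 85 genes had a higher mean on the log2 scale in control males, against 45.1% of all genes, while 54.9% of all genes were negative. The threshold was passed by 65, all of them higher (76.5%), against 6.19% of all genes tested, of which 4.23% were called higher and 1.96% lower. At an unadjusted p under 0.05 there were 76, against 22.3% of all genes. The median log2 difference of the family was 0.84, against −0.052 over all genes, which is 1.79-fold in males. The summed level averaged 14931 ± 1385 scaled FPKM in control males and 7615 ± 373 in control females (SD, n = 3 each), a ratio of 1.96. As a share of all deposited FPKM, the family held 1.67% in control males and 1.24% in control females, a ratio of 1.34. The deposited FPKM of all genes averaged 925857 in control males and 667302 in control females. As a share of the scaled level of all coding genes, the protein-coding members had a ratio of 1.87. In 76 of the 85 genes all 3 control males lay above all 3 control females, against 20.6% of all genes, and in none were all 3 below, against 24.1%. The differences spread from 0.21 for Rpl21 to 1.38 for Rps25, with 14 genes at 0.5 or less, 51 from there to 1, and 20 above 1. Both ends are uncertain, since Rpl21 and Rps25 have near-identical copies that can share their reads, described below.

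The 12 genes of smallest p were Rpl35, Rps27rt, Rps27, Rpl22, Rpl31, Rpl12, Rps3a2, Rpl11, Rps21, Rps18, Rpl17 and Rps15. Rpl35, which binds beside the tunnel exit, had 171, 179 and 204 scaled FPKM in control males and 94.4, 90.8 and 89.6 in control females. The groups did not overlap, with a log2 difference of 1.005 ± 0.11 (SE, adjusted p = 0.00268 by limma). Rpl22, a large-subunit protein that in mice also represses its paralog Rpl22l1, had 83.8, 97.5 and 85.6 in control males and 45.3, 47.4 and 44.4 in control females. Its log2 difference was 0.95 ± 0.11 (adjusted p = 0.00277 by limma). Rpl11, which with Rpl5 binds Mdm2 when ribosome assembly fails, had 69.9, 85.8 and 82.4 in control males and 40.02, 44.4 and 39.9 in control females, a log2 difference of 0.93 ± 0.12 (adjusted p = 0.0049 by limma). In each of these genes the lowest control male stood clear of the highest control female.

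The genes of highest level were higher in control males too. Rps24 had a log2 difference of 1.38 ± 0.25 (SE, adjusted p = 0.013 by limma), Rps21 one of 1.20 ± 0.16 (0.00498) and Rpl32 one of 1.19 ± 0.18 (0.00683). Rps29 (0.91 ± 0.21) and Rpl4 (0.73 ± 0.15) followed, with adjusted p of 0.0289 and 0.0199 by limma. Rpl4, a large-subunit protein that lines the tunnel, had 375, 444 and 433 scaled FPKM in control males and 252, 271 and 232 in control females. The ratio of means was 1.66 for Rpl4 and 2.31 for Rps21.

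The count of 65 depended on the processing and on single libraries. It was 58 without background subtraction, 38 after quantile normalization, 39 with a single transcript per gene and 34 after a correction for transcript length chosen after seeing the data. Over all genes tested, 700, 403, 431 and 268 were called higher in these fits, against 682 in the main fit. The family count was 1 without scaling factors and 0 on the deposited FPKM scaled over all genes, where 85 and 85 of 87 genes were still positive. Over all genes, 10 of 15999 and 59 of 43399 were called higher there. The median over all genes was −0.26 without background subtraction, −0.11 without scaling factors and −0.35 on the deposited FPKM, where the family had 0.89, 0.78 and 1.42. Leaving out a library gave 31, 43 and 30 calls without control female 1, 2 or 3, and 29 and 23 without control male 2 or 3. Calls over all genes fell as well, to 174, 295 and 178 higher and to 168 and 103 higher in the same fits. At least 81 of the genes were positive under every alternative tried.

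The comparison of cKO males with cKO females was added after that of the controls was seen. It contrasts other libraries but comes from the same fit, with shared scaling and a shared estimate of the spread. So it is not independent of the control comparison. It called 70 of the 85 genes, all higher (82.4%), against 41.2% of all genes, of which 19.5% were called higher and 21.7% lower. At an unadjusted p under 0.05 there were 71, against 52.1% of all genes. The median log2 difference was 0.89, against −0.013 over all genes. It was positive in 82 genes and negative in 3, against 49.2% and 50.8% of all genes. The summed level averaged 14659 ± 2719 in cKO males and 7400.2 ± 663 in cKO females (SD, n = 3 each), a ratio of 1.98. The ratio was 1.61 for the share of all deposited FPKM and 2.53 for the share of the scaled level of all coding genes. cKO male 2, the lowest male sum at 11822, still lay above cKO female 1, the highest female sum at 8128. In 69 genes all 3 cKO males lay above all 3 cKO females, against 20% of all genes, and in none were all 3 below, against 21.1%. Among the genes of smallest p were Rpl12, Rps27rt, Rpl11, Rps27, Rpl36, Rpl13, Rpl32, Rpl17, Rpl14, Rps14 and Rpl5, with log2 differences from 0.91 for Rpl14 to 1.36 for Rpl32 and adjusted p from 0.00244 to 0.00327 by limma. Among the highest genes, the log2 differences were 1.39 ± 0.25 for Rps24 and 1.07 ± 0.16 for Rps21 (SE, adjusted p = 0.00518 and 0.00342 by limma). Without cKO females 2 and 3, 83 genes were positive and the median log2 difference was 0.80. These values rest on a single cKO female library.

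Of the genes called, 63 were called in both sex comparisons, which is 96.9% of those of the controls and 90% of those of the cKO mice. Over all genes tested, 606 were called higher in both (3.76%), which is 88.9% of those called higher in control males and 19.3% of those called higher in cKO males. Those of the family were 32 of 43 large-subunit genes, 24 of 30 small-subunit genes, 3 of 5 paralogs tested and 4 of the 5 further copies tested. Called in neither were 13 genes, among them Rpl24, Rpl21, Rpl34, Rpl6, Rps10, Rpl10, Rpl29, Rps20, Rps15a, Rpl28, Rpl18 and Rps19bp1. Rpl10, an X-linked large-subunit protein at the joining surface with the small subunit, had 30.4, 35.1 and 39.7 scaled FPKM in control males and 23.3, 24.9 and 46.0 in control females. Control female 3 was the highest of these 6, and the log2 difference was 0.22 ± 0.21 (SE, adjusted p = 0.587 by limma). Whether the sex difference itself differed between genotypes is the same test as the difference of the cKO effects, and it called 0 genes.

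**Figure D3:**
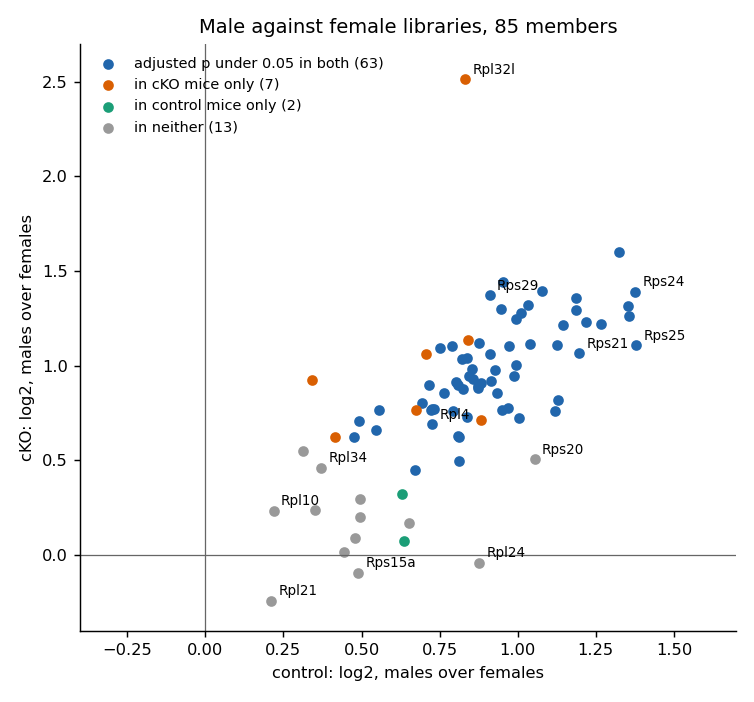
log2 difference of males over females for each of the 85 ribosomal protein genes, in control mice (x axis) and in cKO mice (y axis), coloured by where the adjusted p was under 0.05. The 63 genes called in both lie in the upper right, all values on the x axis are above 0, and Rpl32l, at 2.51 on the y axis, is the copy with zeros in cKO females 2 and 3.

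The family has 4 genes on the X chromosome. Rpl39, a very small protein of the peptide tunnel, had a log2 difference of 1.27 ± 0.19 in favour of control males (SE, adjusted p = 0.00637 by limma). Rps4x, a small-subunit protein of the X chromosome, was higher by 0.69 ± 0.15 (adjusted p = 0.025 by limma). Rpl36a at 0.88 and Rpl10 at 0.22 did not pass, and Rpl36a has a pseudogene of high level, described below. The median of these 4 X-linked genes was 0.79, and that of the 81 autosomal genes tested was 0.84.

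Transcript length moved with the sex difference. The median length of the most abundant transcript was 784 bases in the family and 2891 in the other coding genes tested. Among other coding genes that averaged 20 scaled FPKM or more, the median log2 difference of control males over control females was 0.66 up to 500 bases, 0.45 from there to 1000, 0.20 to 2000, 0.0058 to 4000 and −0.15 beyond. The ribosomal protein genes in the same classes had medians of 0.93 (16 genes), 0.82 (48), 0.82 (15) and 0.91 (5), and the single gene beyond 4000 bases had 0.49. From 500 to 1000 bases, 41 of 48 ribosomal protein genes were called higher (85.4%), against 30.7% of 326 other coding genes. After the correction for length the family kept a median of 0.52, with 81 of 85 genes positive. The part of length, background and depth in the sex difference was not tested beyond these values, and since no label gives a preparation batch, sex and library preparation cannot be told apart.

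**Figure D4:**
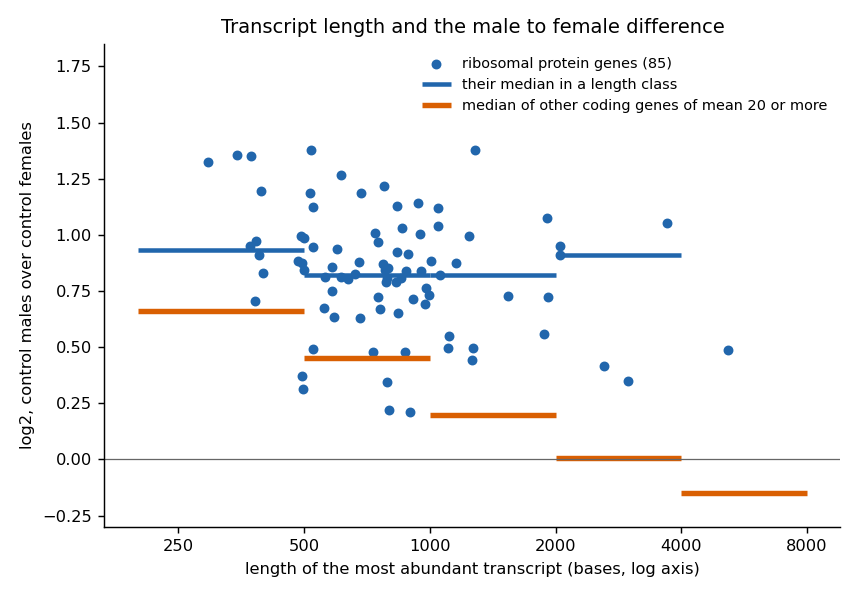
log2 difference of control males over control females against the length of the most abundant transcript (bases, log axis). Points are the 85 ribosomal protein genes, blue lines their medians in length classes of at least 5 genes and orange lines the medians of other coding genes, which fall from 0.66 to −0.15 as length rises.

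Other genes of the translation machinery shared the direction in part. The 7 ribosomal proteins whose names the rule misses had a median log2 difference of 0.74, with 3 called higher. Rpsa, a small-subunit protein, was higher by 1.19 ± 0.26, the stalk protein Rplp1 by 0.74 ± 0.17 and Rack1, a scaffold on the small subunit, by 0.55 ± 0.13 (SE, adjusted p = 0.022, 0.027 and 0.032 by limma). Of 34 translation factors 4 were called higher and none lower, with a median of 0.31. Naca, which contacts nascent chains, was higher by 0.85 and Eef1g, an elongation factor subunit, by 0.61. Of 36 ribosome biogenesis genes none was higher and 1 was lower, with a median of −0.090, and of 12 genes tested of mTOR and p53 signalling to the ribosome none passed, with a median of −0.056. Of 78 mitochondrial ribosome genes 13 were called higher (median 0.32), and of 93 nuclear genes of oxidative phosphorylation 36 (median 0.59). None was called lower in either list. Between cKO males and cKO females, 6 of the 7 ribosomal proteins outside the rule were called higher, and 34 translation factors had 16 higher and 2 lower. The 36 biogenesis genes had 3 higher and 8 lower, the 78 mitochondrial ribosome genes 38 and 3, and the 93 oxidative phosphorylation genes 66 and 1, against 19.5% higher and 21.7% lower over all genes tested.

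Markers of other cells moved with the same comparison. All 8 astrocyte markers were positive and 4 were called higher in control males, with summed levels of 970 to 1113 scaled FPKM in control males and 645 to 679 in control females. All 8 microglia markers were positive with 3 called, at sums of 115 to 129 in control males and 79.4 to 85.1 in control females. All 8 oligodendrocyte markers were positive with 2 called, at 1309 to 1649 in control males and 622 to 866 in control females. Of 10 neuron markers 2 were positive and 1, Gad1, was called lower in control males, at sums of 1402 to 1559 in control males and 1569 to 1642 in control females. Of 6 endothelial markers 3 were positive, with none called. All 5 blood markers were positive with none called, at sums of 205 to 253 in control males and 92.1 to 131 in control females. The choroid plexus sum was 1303 to 3696 in control males and 14.7 to 5244 in control females, with none called. The part of cell composition in the ribosomal protein difference was not tested.

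Several ribosomal protein genes have near-identical copies in the genome, and short reads can be assigned to either. Rpl34 and the pseudogene Rpl34-ps1 show this, and their opening coding stretches are given because no read within them can tell the genes apart (GENCODE M21 transcripts, 90 bases from the start codon).
Rpl34, chromosome 3: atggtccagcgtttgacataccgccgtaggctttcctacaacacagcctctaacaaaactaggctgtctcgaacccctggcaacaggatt
Rpl34-ps1, chromosome 6: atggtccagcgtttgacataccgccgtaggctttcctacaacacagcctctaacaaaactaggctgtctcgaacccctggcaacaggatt
Over the whole coding sequence 349 of 351 bases were identical. Rpl34 had 154, 45.3 and 195.5 scaled FPKM in cKO males, 141.5, 58.6 and 56.9 in control males, 87.1, 80.1 and 74.8 in cKO females, and 88.9, 32.7 and 74.4 in control females. Rpl34-ps1 had 217, 329.8 and 284 in cKO males, 205, 439.9 and 434 in control males, 114, 88.7 and 82.0 in cKO females, and 120.5, 227 and 92.0 in control females. In cKO male 2, control males 2 and 3 and control female 2 the pseudogene held 87.4 to 88.4% of the pair, against 52.3 to 59.2% in the other 8 libraries. The sum of both was 371, 375 and 479.6 in cKO males, 347, 498 and 490.5 in control males, 201, 169 and 157 in cKO females, and 209, 259 and 166 in control females. On the sum all 6 males lay above all 6 females, whereas Rpl34 alone overlapped between the sexes. Rpl21 stood likewise at 26.5 in cKO male 2 and 33.3 in control male 3, against 65.6 to 152 in the other 10 libraries. Its copy Rpl21-ps15 had 154 in cKO male 2 and 236 in control male 3. These splits make the values of Rpl34 and Rpl21 alone uncertain, in the calls for either gene above as well. The 287 pseudogenes named with -ps summed to 36.0 to 37.7% of the level of the family in males and 33.9 to 37.8% in females.

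The retrogene Rps27rt and the paralog Rps27l show both ends of the likeness to Rps27, a zinc-finger protein of the small subunit. The capitals mark bases at which Rps27 and Rps27l differ.
Rps27, chromosome 3: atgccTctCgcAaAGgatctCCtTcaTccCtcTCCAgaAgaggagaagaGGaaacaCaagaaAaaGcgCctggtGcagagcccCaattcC
Rps27l, chromosome 9: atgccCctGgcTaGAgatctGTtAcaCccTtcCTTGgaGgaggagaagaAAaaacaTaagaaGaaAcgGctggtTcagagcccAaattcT
Rps27rt, chromosome 9: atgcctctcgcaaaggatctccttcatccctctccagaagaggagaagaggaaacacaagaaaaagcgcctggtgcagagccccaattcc
Rps27 and Rps27rt were identical in all 252 coding bases, and their levels were nearly equal in every library. Rps27 had 275, 196 and 313 scaled FPKM in cKO males, 257, 287 and 316 in control males, 109.7, 98.6 and 112 in cKO females, and 111, 121 and 102 in control females. Rps27rt had 266, 192 and 306 in cKO males, 249, 280.02 and 306 in control males, 106, 94.3 and 101 in cKO females, and 109, 117 and 99.7 in control females. Other pairs are nearly as close, with 4 of 792 coding bases differing between Rps3a1 and Rps3a2 and 1 of 291 between Rpl37 and Rpl37rt. Between Rps25 and its pseudogene Rps25-ps1, 4 of 375 differ. So the values of Rps3a2, of Rps25 and of these other genes are uncertain too. Rpl36a-ps2 averaged 347 scaled FPKM in control males and 153 in control females, against 223 and 125 for Rpl36a. Rps10-ps2 averaged 81.1 and 38.5, against 57.5 and 46.3 for Rps10. The likeness of these 2 pseudogenes to their genes was not measured, so sharing of reads by Rpl36a and Rps10 was not tested. Reads within the coding sequence of Rps27 and Rps27rt cannot be told apart, and the rest of their transcripts was not compared. The 2 genes may thus be 1 observation, with log2 differences of 1.36 and 1.35 between control males and females. Each is still counted as a gene in the calls above.

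**Figure D5:**
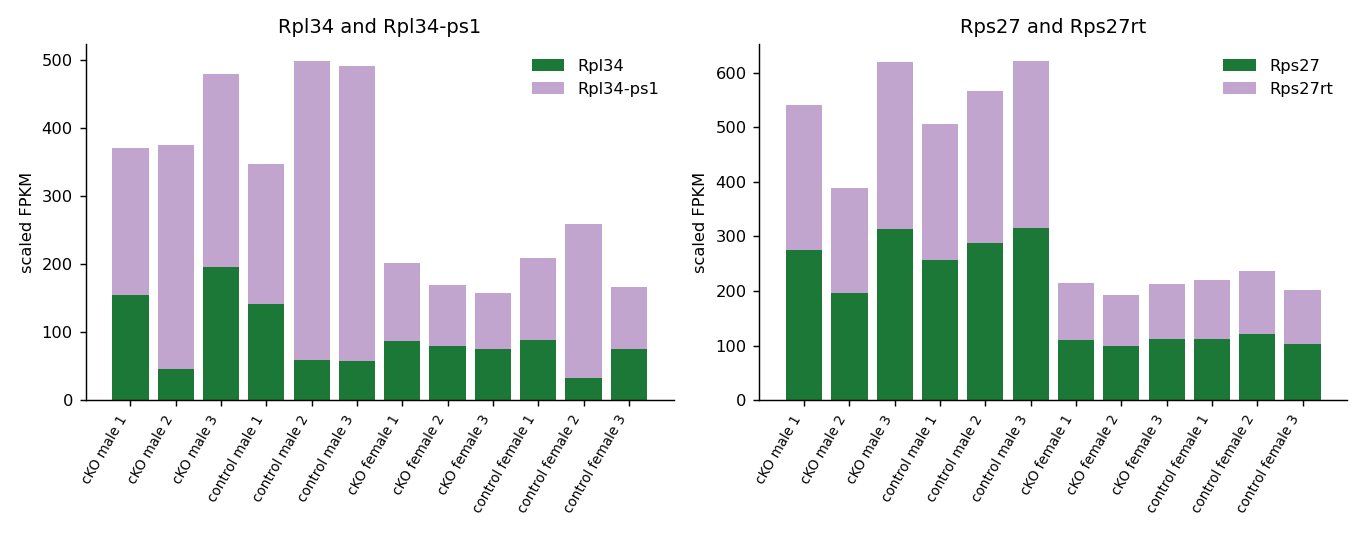
Scaled FPKM of Rpl34 stacked with its pseudogene Rpl34-ps1 (left) and of Rps27 stacked with its retrogene Rps27rt (right) in each library. The Rpl34 share is small in cKO male 2, control males 2 and 3 and control female 2, while Rps27 and Rps27rt split nearly evenly in all 12 libraries.

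Rps27l differed from Rps27 at 24 of the 90 bases shown and was identical in 76.5% of the aligned coding sequence. It is a target of p53 in human and mouse cells. Rps27l had 17.1, 9.29 and 19.2 scaled FPKM in cKO males, 12.6, 14.7 and 14.8 in control males, 8.94, 4.01 and 7.02 in cKO females, and 6.51, 8.92 and 7.46 in control females. Its log2 difference of cKO males over cKO females was 1.14 ± 0.29 (SE, adjusted p = 0.0133 by limma), and the 0.84 ± 0.29 between control males and females did not pass (adjusted p = 0.112). Rpl22l1, identical to Rpl22 in 75.5% of the aligned coding sequence, was higher in control males by 0.95 ± 0.21 and in cKO males by 1.30 ± 0.21 (adjusted p = 0.0247 and 0.00393 by limma). Rpl36al, 87.7% identical to the X-linked Rpl36a, was higher by 0.49 ± 0.12 in control males and 0.71 ± 0.12 in cKO males (adjusted p = 0.0308 and 0.00403 by limma). Rps4l, 79.9% identical to Rps4x, was higher by 0.92 ± 0.25 in cKO males (adjusted p = 0.0157 by limma). It did not pass in control males at 0.34 ± 0.25. The call of Rps4l in cKO males is uncertain, since its level lay near the background subtracted from cKO females 2 and 3. On the deposited values, cKO male 3 at 3.17 FPKM lay within the cKO female range of 3.13 to 4.30. cKO males 1 and 2 lay above that range, at 4.94 and 4.86. Over 27 alternatives this log2 difference ran from 0.17 to 1.13, and 19 of them called the gene. By genotype none of the 5 paralogs tested passed in either sex, and all 5 log2 changes were negative in females.

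Apart from the copies, the replicate spread of the subunit genes was modest. The median coefficient of variation over 3 libraries was 19.1% in cKO males, 12.3% in control males, 13.2% in cKO females and 8.27% in control females. The widest spreads belonged to Rpl21, Rpl34 and Rps20, at a mean of 42.0%, 41.9% and 40.2% over the groups. Transcripts annotated as protein coding made up 84.9 to 87.2% of the FPKM of the family in males and 79.9 to 85.2% in females. Retained-intron transcripts made up 4.8 to 6.3% in males, 10.8 and 10.1% in cKO females 2 and 3, and 6.2 to 7.2% in the other 4 females.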

How the data were processed

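Gene levels in 12 hippocampal libraries come from total RNA extracted by miRVANA and, per the labels' protocols, depleted of ribosomal RNA and built with ScriptSeq Complete Gold. HISAT2 2.0.4, StringTie and GRCm38.p6 are named in the submitters' processing notes. The deposited tables give FPKM per transcript, computed by the authors, and the deposited coverage signal per transcript, the mean read depth over its bases. From their ratio, mapped bases were recovered. Strand use and annotation release are not given in the sources used here, so overlapping genes are uncertain.

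The members and lists were chosen with earlier results of these data known. FPKM of 137862 transcripts was summed to 54532 genes, of which 54409 matched GENCODE M21. The background of each library (median summed FPKM of 1979 receptor genes) was taken off, and negative values became 0. Libraries were scaled by median-of-ratios over 7894 coding genes averaging 5 or more. Genes averaging 1 or more and reaching 1 in 3 or more libraries (16124) were tested as log2(x + 0.5), which understates folds of low genes. limma 3.58.1 (trend, robust, R 4.3.3) fitted 4 group means and gave two-sided tests with Benjamini-Hochberg adjustment over all genes and a threshold of 0.05. The script was tested on simulated data in which each gene had the same spread in all groups. At a log2 change of 1, it recovered 72 of 100 changed genes in males and 75 in females. False calls numbered 3 in males and 20 in females. FPKM keeps no read counts, so no counting interval is given. Depth ran from 1.16 to 8.64 Gb.

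Genes named were, in each comparison, those past the threshold, up to 12 of smallest p in each direction, or filled to 8 by smallest p. The 5 highest and 5 lowest levels, the paralogs, and up to 3 genes of a list were named too. Genes whose values rest on copies, Rpl11, Rpl38, Rpl26 and the choice of starts shown, and the genes called in neither sex comparison outside that rule, were chosen after their values were seen. Some single genes that this rule picks are not reported here, though they stay in the fits and counts. Alternatives were scaling, background, pseudocount (0.1 and 1), filters, a single transcript per gene, a replicate block and leaving out libraries. Protein sequences were not used here, and coding sequences were compared with Biopython 1.88 instead.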

Additional observations from a re-analysis of the deposited data

How the results depend on the processing

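The counts of ribosomal protein genes called between cKO and control mice were 0 in males under all 28 alternatives. They were 0 in females, for the difference of the effects and for their mean under all but 1, which left out cKO female 1. Leaving out 1 library gave 0 to 16 genes in females, 0 to 3 for the difference, 0 to 8 for the mean, 23 to 73 for control males against control females and 64 to 70 for cKO males against cKO females. The 16, 3 and 8 came without cKO female 1. Of the 15989 genes then tested, 4201 were called higher and 3747 lower in females. For the difference these were 2048 and 2225, and for the mean 3611 and 2778. Where 23 and 73 were called, 103 and 1376 of all genes were called higher. Without cKO females 2 and 3 together, 74 genes were called between the controls. The 65 genes of the control sex comparison were 0 on deposited FPKM scaled over all genes, 1 without scaling factors, 38 after quantile normalization, 41 without a filter and 39 with a single transcript per gene. Over all genes tested, 59, 10, 403, 246 and 431 were called higher in these fits, against 682 in the main fit. The 65 genes were 34 after a transcript length correction that was added after seeing the data, where 268 of all genes were called higher. In the cKO sex comparison the median log2 difference of the family was 0.80 without cKO females 2 and 3, and 0.80 when control female 3 was left out as well. Both values rest on a single cKO female library.

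Same-numbered libraries did not deviate together in every pair: the correlations were 0.114, −0.267 and 0.318 in females and 0.0488, −0.0943 and 0.214 in males, so the numbers were not taken as pairs. With the replicate block within each sex, 33 genes were called between control males and control females, and 53 with 1 block over the 4 groups. Over all genes tested, 234 and 459 were called higher in these 2 fits. The block changed no other count by over 1.5 times.

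The sign of single genes changed as follows, on the log2 scale, and the cause was not tested except where the subtraction itself sets a value to 0. On deposited FPKM scaled over all genes, Rps15a was −0.39, Rpl35 −0.70 and Rps3a2 −0.77 in females. There the difference of the effects was 0.0720 for Rps15a, 0.14 for Rps13, 0.42 for Rpl31, 0.50 for Rpl35 and 0.0823 for Rps19bp1, and their mean was −0.46 for Rps3a2 and −0.45 for Rpl35. With a single transcript, Rps15a was −0.46 in females and 0.42 for the difference, Rps16 −0.45 and Rps2 0.31 in males, and Rps19bp1 −0.0398 between cKO males and females. Without background subtraction, Rpl32l was 0.0374 in females and 0.0522 for the mean, and Rps4l −0.11 for the difference. Without scaling factors, Rps3a2 was −0.0562 in females and Rpl35 0.0396 for the difference. Summed with pseudogenes, Rps13 was 0.0534 in males and Rps4l −0.0455 for the difference. After the length correction, Rpl10 was −0.0850 in control and −0.10 in cKO males over females, and Rps19bp1 −0.15 in cKO. Without cKO male 1, Rps19bp1 was −0.00716 between cKO males and females. With libraries left out in other ways its value went up to 0.48, of the same sign as the reported one.

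FPKM of Rpl32l and Rps4l lay near the background of cKO females 2 and 3, the libraries with the least mapped sequence. What depth alone does to low genes was not tested.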
